A study of Mus musculus with 13 samples.

Results

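The comparison sets stroma after 1 day with blood stem and progenitor cells against the same stroma before contact with them. The stroma is UG26-1B6, a clone grown from the urogenital ridge of a midgestation mouse embryo, so every array comes from 1 clone and no other stromal line stands beside it. Its members are the 6 arrays whose titles name day 0 before co-culture (n = 3) or the 24 h co-culture (n = 3), out of 13 arrays in the series. Per the labels' protocols, stroma for co-culture was grown until confluent, given 30 Gy and then seeded with LSK cells, which lack lineage markers and carry Sca-1 and Kit. Day 0 cells were taken off the plate with trypsin. The medium control (n = 2) was stroma harvested 24 h after its medium was changed, with no LSK cells added. It is given beside the comparison for part of the genes described. The irradiation of the day 0 and medium control cells, and the way stroma was parted from LSK cells at harvest, are not stated in the labels. Day 0 and day 1 therefore differ in elapsed time, fresh medium, possibly irradiation and harvest, and the presence of LSK cells, and these cannot be told apart from the comparison alone.

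Stromal cells of haematopoietic sites keep stem cells in check and alive through membrane-bound and secreted factors such as the chemokine CXCL12 and stem cell factor, through adhesion molecules such as VCAM-1, and through the matrix they lay down. Wnt ligands and their secreted antagonists, made by the same stroma, tune the response of the blood cells. Matricellular CCN proteins and small leucine-rich proteoglycans bind growth factors in that matrix and change what reaches a cell. Which of these genes differed between the day 0 and day 1 arrays is what the comparison can show.

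Values are log2 expression per probe set, and a change is the log2 difference of the group means, day 1 minus day 0, ± its standard error, so a change of 1 is 2-fold. The lowest value in the table was 2.28. A gene whose arrays in a group all lay at or under 2.38, the median of the whole table, or at its own lowest value is called at the floor there, since its level may be lower still. Adjusted p-values are Benjamini-Hochberg values from limma over 12205 genes, from a fit of all 13 arrays, and a gene passed, or was called, at an adjusted p under 0.05. A gene is represented by its brightest probe set, and other probe sets past the filter are given for part of the genes described. Replicates are biological in the titles but technical in the series' design description. The p-values therefore cover only how far these arrays spread.

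The 6 arrays fell into their groups. Correlations across genes ran from 0.973 to 0.982 among the day 0 arrays, from 0.986 to 0.990 among the day 1 arrays and from 0.940 to 0.963 between the groups, with genes not being independent replicates. Poly-A spike-in RNAs, averaged over 24 probe sets, read 3.64 to 6.01 at day 0, 3.31 and 3.46 in the medium control and 6.78 to 9.67 on day 1. For Gapdh, signal at the 3' end minus signal at the 5' end was 2.67 to 3.82 at day 0 and 2.39 to 3.50 on day 1. Spike-in signal thus differed between the groups with no overlap while the Gapdh 3' to 5' difference overlapped, and the part of spike-in signal in any gene's change was not tested. Of 13 listed markers of mesenchymal stroma, all on the array, 10 passed the filter on low values. These 10 averaged above 5 in both groups, while the rest read too low to be tested. Among the arrays outside the comparison, day 2 replicate 1 correlated at most at 0.785 with any other array. Its Gapdh 3' to 5' difference was 8.96. For Actb, the beta-actin gene, that difference was 9.79, against 2.29 to 3.10 at day 0 and 2.43 to 3.13 on day 1. This array enters only through the shared estimate of spread, so counts are also given from a fit without it.

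After 1 day of co-culture 101 genes were higher and 162 lower than at day 0, which is 2.15% of the genes tested, 0.828% higher and 1.33% lower. All 263 had the 3 arrays of one group above the 3 of the other, 253 changed at least 2-fold and 26 at least 8-fold. Groups that do not overlap were common, at 39% of all genes, 17.7% higher and 21.3% lower on day 1. The fit without day 2 replicate 1 gave 531 higher (4.35%) and 759 lower (6.22%), 10.6% in all, and all 263 genes were among them. Counts of called genes in each list below are to be read against these shares over all genes, from the same fit. With only the 6 arrays in the fit, 726 were higher and 1060 lower, sharing 249 of the 263. Quantile normalization gave 151 higher and 146 lower, and centring the arrays on their measured probe sets gave 39 higher and 71 lower, so the excess of falls was seen under the latter and not under the former. Leaving out a single day 0 array (replicate 1, 2 or 3) gave 115, 56 or 138 calls, and leaving out a single day 1 array gave 42, 9 or 14. It was 69 without medium control replicate 1 and 69 without replicate 2, arrays which enter through the spread alone. In the medium control itself 27 genes were higher and 13 lower than at day 0 (0.328% in all, 0.221% higher and 0.107% lower). Day 1 against the medium control gave 263 higher (2.15%) and 372 lower (3.05%), or 5.2% in all. A fit without day 2 replicate 1 gave 166 calls for the medium control over day 0 (1.36%, 0.778% higher and 0.582% lower), and for day 1 over the medium control 2103 (17.2%, 7.61% higher and 9.62% lower).

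**Figure D1:**
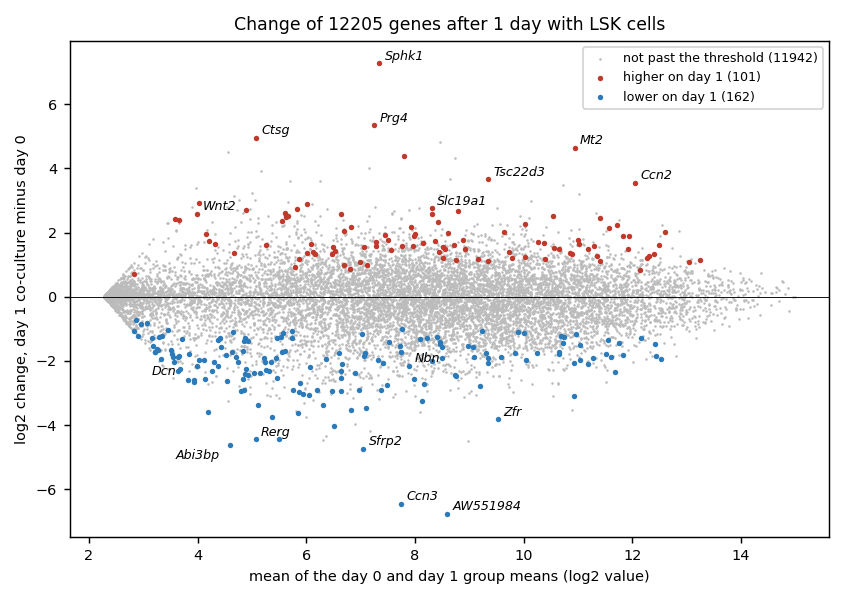
Log2 change from day 0 to day 1 of co-culture (vertical) against the mean of the 2 group means (horizontal, log2 value), 1 point per gene. Red points are the 101 genes that were higher and blue points the 162 that were lower past the threshold; large changes such as those of Sphk1 and Ccn3 lie far from 0, but many grey points lie as far out as called ones.

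A small set of 9 genes passed in the fit of all arrays, without each of the 6 arrays in turn and without day 2 replicate 1. Those higher on day 1 were Mt2, Wnt2 and Slc19a1, and those lower were Dcn, Abi3bp, Rerg, Zfp874a, Nbn and Chic1. Of these, 7 passed under all 20 alternatives run, while Chic1 lost its call when the probe sets of a gene were averaged and Nbn when arrays were centred on the measured probe sets. The 9 divide by the medium control. For Mt2, Dcn, Abi3bp and Rerg the medium control lay near day 1, for Wnt2, Nbn and Chic1 it lay near day 0, and for Slc19a1 and Zfp874a it lay between.

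Mt2 encodes metallothionein 2, a small cysteine-rich protein that binds zinc and copper. It measured 9.13, 8.45 and 8.29 on the day 0 arrays and 13.07, 13.29 and 13.41 on day 1, a change of 4.63 ± 0.28 (limma, adjusted p = 0.000324). The medium control lay at 12.51 and 12.57, which also passed against day 0 (3.92 ± 0.31, adjusted p = 0.00216), and day 1 did not pass against it (0.72 ± 0.31, adjusted p = 0.23). All 5 day 1 and medium control arrays thus lay above all day 0 arrays. Its neighbour Mt1 moved the same way, from 10.41, 10.37 and 9.73 to 12.52, 12.63 and 12.76 (2.47 ± 0.31, adjusted p = 0.00944), with the medium control at 11.98 and 11.88, and its other probe set changed by 1.91. The call for Mt1 held in 4 of the 6 removals of 1 array. Of 18 tested genes of metallothioneins and zinc transporters these 2 rose, 0 fell and 16 did not pass, with a median change of -0.09 (0.04 after quantile normalization), while without day 2 replicate 1 the counts were 3 and 2.

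Metallothionein promoters carry copies of a metal response element, the site of the zinc-sensing factor MTF-1, so the letters before both genes are shown. The windows hold the 250 bases before the RefSeq start of each gene (build GRCm38.p6), 5′ to 3′ on the strand of the gene. Capitals mark each match to the pattern TGCNCNC on either strand. The pattern allows any base at each N, so a match need not be a metal response element. Both genes lie on the plus strand, with the window of Mt1 at chr8:94178839-94179088 and that of Mt2 at chr8:94172368-94172617.
Mt1: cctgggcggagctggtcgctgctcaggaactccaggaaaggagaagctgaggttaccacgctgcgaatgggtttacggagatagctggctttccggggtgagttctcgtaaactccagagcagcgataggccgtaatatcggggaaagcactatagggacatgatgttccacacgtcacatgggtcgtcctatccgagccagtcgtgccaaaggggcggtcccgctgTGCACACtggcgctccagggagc
Mt2: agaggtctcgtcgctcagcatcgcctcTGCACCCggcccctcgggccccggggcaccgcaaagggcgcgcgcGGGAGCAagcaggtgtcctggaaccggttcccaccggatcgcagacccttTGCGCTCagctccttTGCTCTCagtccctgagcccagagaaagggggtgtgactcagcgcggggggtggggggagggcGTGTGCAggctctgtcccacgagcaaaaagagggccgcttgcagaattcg
The Mt1 window held 1 match, which starts 23 bases before the RefSeq start. The Mt2 window held 5, of which 3 read on the plus strand and 2 on the minus strand, and none overlap. Bases outside the windows were not searched, so the counts do not compare the whole promoters. The pattern is short, loose and common, and 44.4% of all 32851 such windows held at least 1 match, so the matches are a description of these letters.

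The glucocorticoid-induced leucine zipper gene Tsc22d3, a direct target of the glucocorticoid receptor, rose from 7.06, 7.68 and 7.80 to 11.26, 11.09 and 11.15 (3.65 ± 0.57, adjusted p = 0.0195). Medium control arrays read higher still, at 11.97 and 11.87 (4.41 ± 0.64 against day 0, adjusted p = 0.0289). The call in co-culture held in 1 of the 6 removals, and its 2 other probe sets changed by 0.63 to 4.06. Fkbp5, a chaperone that restrains the receptor and is induced by it, showed the same order of groups, at 8.29 to 9.43 at day 0, 13.31 and 13.15 in the medium control and 12.31 to 12.55 on day 1 (3.47 ± 0.97, adjusted p = 0.101). Day 0 and day 1 did not overlap for either gene. Of 19 tested glucocorticoid receptor targets 1 rose, 0 fell and 18 did not pass, with a median of 0.90 against 0 over all genes, and 0.999 in the medium control. In the fit without day 2 replicate 1, 6 were higher (Tsc22d3, Fkbp5, Zbtb16, Klf9, Errfi1 and Lcn2) and 1, the receptor gene Nr3c1, was lower.

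**Figure D2:**
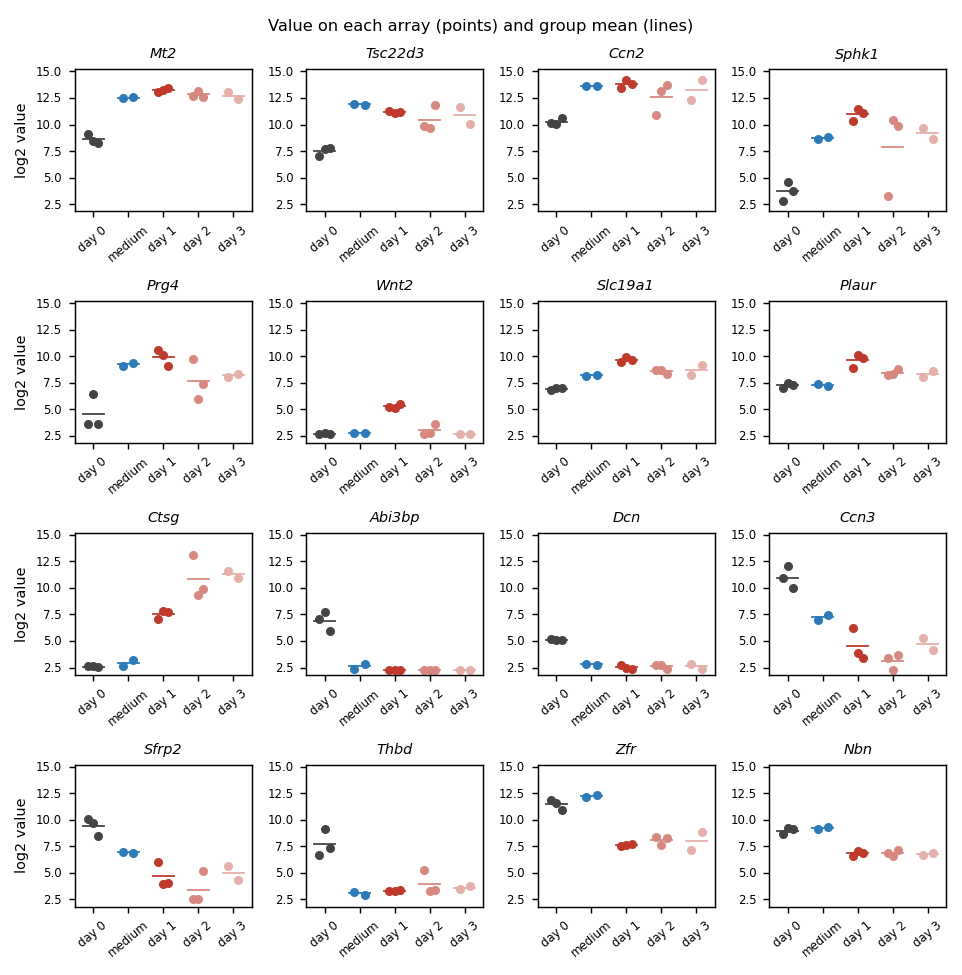
Log2 value (vertical) of 16 genes on each of the 13 arrays, by group; points are arrays and lines group means, with 3, 2, 3, 3 and 2 arrays from left to right. Mt2, Tsc22d3, Ccn2, Abi3bp, Dcn and Thbd have their medium control points near day 1, whereas those of Wnt2, Plaur, Ctsg, Zfr and Nbn lie near day 0.

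Among growth factors and their modulators, 2 members of the CCN family changed, in opposite directions. Ccn2, a matricellular protein that binds growth factors and integrins, measured 10.12, 10.06 and 10.63 at day 0 and 13.46, 14.17 and 13.86 on day 1 (3.56 ± 0.70, adjusted p = 0.0391), a call that held in 0 of the 6 removals. Its medium control arrays, at 13.62 and 13.61, lay within the day 1 range. Ccn3 fell from 10.89, 12.02 and 9.98 to 6.22, 3.88 and 3.42 (-6.46 ± 0.78, adjusted p = 0.00934), with the medium control between, at 7.01 and 7.43, and a second probe set that changed by -6.59. The Ccn3 call held in 4 of the 6 removals. Of the 5 tested CCN genes 1 rose, 1 fell and 3 did not pass, among them Ccn1 at 0.23 ± 0.63. Genes of the Hippo-YAP pathway, for which Ccn1 and Ccn2 are standard targets, had 0 of 20 past the threshold and a median of -0.44. The smallest p there belonged to Wwtr1, which encodes the coactivator TAZ (-1.68 ± 0.52, adjusted p = 0.13), and which alone passed, lower, without day 2 replicate 1. Its 2 other probe sets changed by -0.06 and -0.05.

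Wnt2, a secreted ligand of the Wnt pathway, lay higher on the 3 day 1 arrays than on any other of the 13. It measured 2.67, 2.72 and 2.69 at day 0, 2.76 and 2.72 in the medium control, and 5.19, 5.13 and 5.53 on day 1 (2.59 ± 0.24 against day 0, adjusted p = 0.00228, and 2.54 ± 0.26 against the medium control, adjusted p = 0.00298). The day 0 and medium control values of Wnt2 lay near the lowest value of the table, 2.28. Its day 1 level did not last, with 2.71, 2.77 and 3.57 on day 2 and 2.71 and 2.69 on day 3. Of 25 tested Wnt ligands, receptors and targets it was the 1 to rise, 0 fell and 24 did not pass, with a median of -0.13. With day 2 replicate 1 left out, the Wnt5a receptor gene Ror2 and the feedback target Axin2 were higher too and Ctnnb1, which encodes beta-catenin, was lower. Ror2 lay at 7.65, 9.04 and 9.07 at day 0 and at 10.78, 10.85 and 10.80 on day 1. Wnt5a, its ligand, differed by -0.90 ± 1.20.

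Among secreted Wnt antagonists and R-spondins, which enhance Wnt signals, 1 gene passed. Sfrp2, a secreted decoy that binds Wnt proteins, fell from 10.08, 9.71 and 8.48 to 6.02, 3.95 and 4.04 (-4.75 ± 0.84, adjusted p = 0.0298), with the medium control at 6.95 and 6.89 and the call held in 2 of the 6 removals. Of the 7 tested 0 rose, 1 fell and 6 did not pass. Their median was -2.18, and 4 of the 7 lay lower on day 1 without overlap, where 21.3% of all genes did. In the medium control the median was -1.46, and the fit without day 2 replicate 1 gave the same counts. Bmp6, a ligand of the BMP branch, fell from 5.93, 6.55 and 5.76 to 4.15, 3.92 and 2.92 (-2.42 ± 0.45, adjusted p = 0.0337), and it was the 1 gene of 34 in TGF-beta and BMP signalling to pass. Spry1, a feedback inhibitor of FGF receptors, fell from 9.78, 8.56 and 8.29 to 6.79, 5.31 and 6.23 (-2.76 ± 0.58, adjusted p = 0.046), the 1 of 16 tested FGF and Sprouty genes. The calls of Bmp6 and Spry1 held in 0 of the 6 removals, and the medians of their lists were -0.01 and -0.02. In the medium control Bmp6 read 4.08 and 4.39, nearer to day 1, and Spry1 8.63 and 8.51, within the day 0 range.

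The niche cytokines held 0 of 18 tested genes past the threshold, with a median of -0.60 and 9 lower without overlap, where 21.3% of all genes were. Cxcl12, the chemokine that retains stem cells, measured 12.86, 12.19 and 11.59 at day 0 and 10.77, 9.94 and 9.67 on day 1 (-2.09 ± 0.65, adjusted p = 0.131), with the medium control at 12.10 and 12.28 and other probe sets at -1.68 and 0. Fgf7, an epithelial growth factor, differed by -2.29 ± 0.61 (adjusted p = 0.0879). Kitl, which encodes stem cell factor, lay at 11.25 to 12.84 at day 0 and at 9.42 to 10.66 on day 1 (-1.95 ± 1.58, adjusted p = 0.637), but its medium control arrays, at 9.77 and 10.17, lay within the day 1 range. Cxcl12, Kitl, Angpt1 and Jag1 were lower, and 0 were higher, without day 2 replicate 1. In that fit the standard error of Kitl was 0.46.

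Of 28 adhesion molecules 0 passed, with a median of 0. Vcam1, the ligand on stroma for the integrin VLA-4 of blood cells, measured 11.19, 11.60 and 10.44 at day 0 and 8.68, 8.32 and 8.08 on day 1 (-2.71 ± 0.91, adjusted p = 0.159; other probe sets -1.52 and -0.08), while the medium control, at 10.89 and 10.72, lay within the day 0 range. Itgb5, an integrin chain for vitronectin, differed by 1.44 ± 0.38 and Itga1, a collagen receptor chain, by -2.19 ± 0.62. All 3 passed without day 2 replicate 1, where 4 adhesion genes were higher and 3 lower. In that fit the standard error of Vcam1 was 0.37.

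Of the matrix genes, Dcn and Abi3bp kept their calls in every removal of 1 array. Dcn encodes decorin, a small leucine-rich proteoglycan that coats collagen fibrils and binds TGF-beta. It measured 5.20, 5.12 and 5.07 at day 0 and 2.78, 2.41 and 2.37 on day 1 (-2.61 ± 0.20, adjusted p = 0.00139), near the lowest value of the arrays. Medium control arrays read 2.80 and 2.78, and the group passed against day 0 too (-2.34 ± 0.22, adjusted p = 0.00321). Abi3bp, an extracellular protein that binds collagens, fell from 7.09, 7.71 and 5.91 to 2.28 on all 3 day 1 arrays, so that the fall of at least 4.62 (SE 0.37, adjusted p = 0.00145) is a lower bound. Its medium control arrays read 2.41 and 2.81, and it stayed at 2.28 on all 5 arrays of days 2 and 3. Its other probe set changed by -2.44.

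Fbn2, which encodes the microfibril protein fibrillin 2, fell from 7.88, 8.04 and 7.06 to 5.01, 3.56 and 3.56 (-3.62 ± 0.51, adjusted p = 0.0117), with the medium control at 4.98 and 5.85. Prg4, which encodes the lubricating proteoglycan lubricin, rose from 3.64, 6.47 and 3.64 to 10.59, 10.08 and 9.12 (5.35 ± 0.99, adjusted p = 0.0337), with the medium control at 9.11 and 9.35. The Fbn2 call held in 3 of the 6 removals and that of Prg4 in 1. For both genes the groups were far apart but the arrays within a group were not close.

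By list, 1 of 10 small leucine-rich proteoglycans fell (median -0.43), 1 of 16 elastic fibre and cross-linking genes fell (median -0.40), and 1 of 26 matrix glycoproteins and proteoglycans rose while 1 fell (median -0.21). With that day 2 array left out these counts were 2 lower, 1 higher and 2 lower, and 1 higher and 1 lower. Of 27 collagen genes 0 passed in either fit, with a median of -0.23. Col1a1, the main fibrillar collagen chain, differed by -0.14 ± 0.47, while the smallest p belonged to the basement membrane chain Col4a2 (1.33 ± 0.41, adjusted p = 0.125). Col4a2 read 10.32 and 10.21 in the medium control, above all day 1 arrays. Of 26 matrix proteases and inhibitors 1 rose and 0 fell, with a median of -0.74 and 11 lower without overlap, where 21.3% of all genes were. With day 2 replicate 1 left out, Adam12 and Timp1 were higher and Mmp14 and Adamts5 lower. The riser was Adam12, a membrane metalloprotease, which went from 3.43, 3.42 and 3.17 to 4.87, 5.63 and 4.75 (1.74 ± 0.36, adjusted p = 0.0447, held in 0 of the 6 removals). In the medium control Adam12 read 4.58 and 4.71, nearer to day 1.

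On the cell surface, genes of the urokinase and coagulation systems moved in both directions. Plaur, the urokinase receptor, rose from 7.03, 7.47 and 7.28 to 8.88, 10.12 and 9.80 (2.34 ± 0.33, adjusted p = 0.0117). Its medium control arrays stood at 7.43 and 7.24, within the day 0 range, and day 1 passed against them (2.27 ± 0.37, adjusted p = 0.0145). Thbd, which encodes the thrombin receptor thrombomodulin, fell from 6.69, 9.08 and 7.37 to 3.26, 3.26 and 3.33 (-4.43 ± 0.65, adjusted p = 0.0133), and the medium control lay as low, at 3.22 and 2.94. Tgm2, a transglutaminase that cross-links matrix, rose from 4.65, 4.68 and 7.48 to 8.88, 10.69 and 10.44 (4.40 ± 0.92, adjusted p = 0.0459), though its 4 other probe sets changed by 0.10 to 4.87. For Tgm2 the medium control, at 8.61 and 8.69, lay nearer to day 1. These 3 were the called genes among 14 tested, and their calls held in 4, 3 and 1 of the 6 removals. The list had a median of -0.15, and 2 higher and 3 lower genes without day 2 replicate 1.

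The largest rise of all was in Sphk1, which makes the lipid mediator sphingosine-1-phosphate. It measured 2.81, 4.59 and 3.72 at day 0 and 10.36, 11.51 and 11.09 on day 1 (7.28 ± 1.56, adjusted p = 0.0495), with 8.65 and 8.84 in the medium control. The call stood close to the threshold and held in 0 of the 6 removals, and day 2 replicate 1, at 3.27 against 10.45 and 9.84 on the other day 2 arrays, enlarged its shared spread. Of 21 tested sphingosine-1-phosphate genes it was the 1 that rose, 0 fell and the median was 0. Sphk1, without day 2 replicate 1, stayed the 1 higher gene and the ceramidase gene Asah2 was lower.

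Folate, amino acid and polyamine metabolism held several rises. Slc19a1, the reduced folate carrier, rose from 6.78, 7.03 and 7.0 to 9.45, 9.93 and 9.69 (2.75 ± 0.25, adjusted p = 0.00228), with a second probe set at 3.03. Its medium control arrays lay between, at 8.15 and 8.25, and day 1 passed against it (1.49 ± 0.28, adjusted p = 0.0235). Phgdh, the first enzyme of serine synthesis, rose from 11.02, 10.41 and 10.06 to 12.53, 12.77 and 12.62 (2.15 ± 0.29, adjusted p = 0.0114). For Phgdh the medium control at 12.54 and 12.26 lay near day 1, and its 3 other probe sets changed by 2.49 to 2.77.

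Srm, which encodes spermidine synthase, rose from 9.37, 8.35 and 8.95 to 10.97, 11.11 and 11.35 (2.25 ± 0.28, adjusted p = 0.00944), and the medium control, at 11.07 and 11.04, passed against day 0 as well (adjusted p = 0.0289). Of 26 tested genes of the amino acid response and serine synthesis 3 rose and 0 fell, with a median of 0.60, where 0.828% of all genes rose. Without day 2 replicate 1, 3 were higher and 2 (Atf3 and Ddr2) lower. Beside Phgdh the risers were the transcription factor gene Cebpb (1.19 ± 0.23) and the glutamine transporter gene Slc1a5 (1.18 ± 0.23). Srm was the 1 of 12 polyamine genes to rise, with 0 lower and a median of 0.19, and Sat1 was lower besides without day 2 replicate 1. Calls of Phgdh and Srm held in 4 of the 6 removals each, that of Cebpb in 1 and that of Slc1a5 in 0. Of 27 endoplasmic reticulum chaperone genes 1 fell, Herpud1 (-1.18 ± 0.20, adjusted p = 0.0288), a part of the degradation machinery of that organelle, whose other probe set changed by -0.36. Their median was 0.07, and 0 were higher and 3 lower without day 2 replicate 1.

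Of 50 tested genes of ribosome biogenesis 3 rose, where 0.828% of all genes did, and 0 fell, with a median of 0.83. Without overlap 28 were higher, where 17.7% of all genes were. The called ones were the snoRNP protein gene Nhp2 (2.01 ± 0.32, adjusted p = 0.0198), Rrp1b (1.50 ± 0.26) and Tsr1 (1.28 ± 0.25), which act in small nucleolar particles and in ribosome assembly. The other probe set of Tsr1 changed by -0.09. In the medium control Rrp1b read 9.82 and 9.81, within its day 1 range of 9.52 to 9.86. Tsr1 read 12.43 and 12.46 there, between day 0 and day 1. Nhp2 measured 11.79, 10.84 and 12.19 at day 0, 12.87 and 12.96 in the medium control, and 13.54, 13.61 and 13.70 on day 1. The list's median in the medium control was larger, at 1.11, and day 1 against the medium control gave -0.009. Leaving out day 2 replicate 1 gave 10 higher and 0 lower. Ppan, a further ribosome assembly gene that was not in the list, rose from 6.98, 7.35 and 8.08 to 9.32, 10.57 and 10.51 (2.66 ± 0.39, adjusted p = 0.0141) and lay at 7.55 and 7.53 in the medium control.

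Of 40 tested genes of mitosis and the spindle 0 passed, but their median was -1.60 and 26 lay lower on day 1 without overlap, where 21.3% of all genes did, against 0 higher. Aurka, a kinase of the spindle poles, measured 5.90, 5.59 and 7.16 at day 0 and 3.18, 4.76 and 3.28 on day 1 (-2.48 ± 0.59, adjusted p = 0.0674), and Nek2, a centrosome kinase, differed by -2.12 ± 0.56 (adjusted p = 0.0873). In the fit without that day 2 array, 7 were lower and 0 higher. Medium control arrays lay on the other side of day 0, with a list median of 0.81. Day 1 against the medium control gave 0 higher and 4 lower, with a median of -2.3, where 3.05% of all genes were lower. Without day 2 replicate 1 that comparison gave 0 higher and 19 lower, where 9.62% of all genes were lower. Mki67, the usual marker of cycling cells, stood at 8.30, 7.65 and 7.17 at day 0, 9.13 and 8.76 in the medium control and 5.90, 6.65 and 3.57 on day 1 (-2.33 ± 1.88).

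Of 40 genes of DNA replication 1 fell and 0 rose, with a median of 0.12. It was Pcna, the sliding clamp of DNA polymerase, at 12.60, 12.89 and 12.94 against 11.88, 11.39 and 11.31 (-1.28 ± 0.21, adjusted p = 0.0224, held in 2 of the 6 removals). The medium control lay above day 0, at 13.41 and 13.33, and day 1 passed against it. Nbn, which encodes nibrin of the complex that senses DNA breaks, fell from 8.61, 9.17 and 9.14 to 6.59, 7.02 and 6.83 (-2.16 ± 0.22, adjusted p = 0.00451), with 9.16 and 9.28 in the medium control. Among 30 p53 targets 0 passed, with a median of 0.01, and the smallest p belonged to Gadd45b (1.95 ± 0.45, adjusted p = 0.0623, other probe sets 0.23 and 1.44) and the death gene Bbc3 (0.66 ± 0.17, adjusted p = 0.0804), which were higher without day 2 replicate 1, where Eda2r was lower.

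Interferon-inducible genes fell in part. Irgm1, a GTPase that acts against microbes within cells, went from 4.75, 5.33 and 4.32 to 2.69, 2.48 and 2.48 (-2.25 ± 0.29, adjusted p = 0.0104). Ifit2 went from 10.46, 10.74 and 10.40 to 9.11, 8.35 and 8.47 (-1.89 ± 0.33, adjusted p = 0.029), and Ifit3, near the lowest value, by -0.73 ± 0.15 (adjusted p = 0.0407). Both encode antiviral proteins that bind foreign RNA. Isg20, an RNA exonuclease of the same response, rose from 6.37, 6.53 and 6.58 to 8.56, 8.24 and 8.45 (1.92 ± 0.38, adjusted p = 0.0407). The medium control lay near day 1 for Irgm1 (3.24 and 2.83) and Ifit3 (2.45 and 2.51). It lay nearer to day 0 for Ifit2 (9.84 and 10.07) and below day 0 for Isg20 (6.01 and 6.07). Of 27 tested, 1 rose, 3 fell and 23 did not pass, with a median of -0.26, where 0.828% of all genes rose and 1.33% fell. Without day 2 replicate 1 the counts were 1 and 4, against 4.35% and 6.22% of all genes. The Irgm1 call held in 4 of the 6 removals and those of the other 3 genes in 0.

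The promoters of Irgm1 and Ifit3 are shown because both genes fell and both windows held the interferon-stimulated response element, searched as GAAA, any 2 bases and GAAA again on either strand and marked in capitals. Each window is the 250 bases before the RefSeq start (GRCm38.p6), 5′ to 3′ on the strand of the gene. That of Ifit3 lies on the plus strand at chr19:34583279-34583528, and that of Irgm1 on the minus strand at chr11:48871421-48871670.
Ifit3: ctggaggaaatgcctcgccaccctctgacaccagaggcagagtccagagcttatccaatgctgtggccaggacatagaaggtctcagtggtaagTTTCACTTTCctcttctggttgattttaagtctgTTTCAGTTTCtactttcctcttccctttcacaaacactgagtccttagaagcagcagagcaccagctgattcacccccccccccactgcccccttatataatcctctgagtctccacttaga
Irgm1: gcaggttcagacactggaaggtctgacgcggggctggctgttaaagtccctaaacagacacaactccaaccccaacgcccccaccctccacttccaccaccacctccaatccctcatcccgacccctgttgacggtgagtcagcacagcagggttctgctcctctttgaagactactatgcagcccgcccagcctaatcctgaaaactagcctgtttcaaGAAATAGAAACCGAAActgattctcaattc
Ifit3 held 2 matches on the opposite strand, and Irgm1 held 2 on its own strand that overlap and so read as 1 run of capitals. Neither of the 2 windows listed for Ifit2 held a match. Of all 32851 windows 2.98% held the element.

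Of 28 acute-phase and NF-kB genes 0 rose and 1 fell, with a median of 0.01, where 0.828% of all genes rose and 1.33% fell. The one that fell was Tnfaip6, a hyaluronan-binding protein, from 3.72, 4.86 and 3.68 to 2.47, 2.28 and 2.33 (-1.73 ± 0.32, adjusted p = 0.032, held in 2 of the 6 removals). Tnfaip6 read 2.47 and 3.14 in the medium control, nearer to day 1. The acute-phase gene Saa3 lay at 5.04, 7.18 and 5.95 at day 0 and at 12.20, 11.41 and 9.0 on day 1, without overlap (4.81 ± 1.18, adjusted p = 0.0703), and its medium control arrays, at 4.26 and 5.41, reached no higher than day 0. Without day 2 replicate 1, Saa3, Lcn2 and Sod2 were higher and Tnfaip6, Birc3 and Tlr2 lower. Over all genes that fit gave 4.35% higher and 6.22% lower. Of 26 immediate early genes 0 passed (median -0.31), and 0 were higher and 2 lower without day 2 replicate 1. Fosb, at 7.69, 9.02 and 5.06 at day 0, lay at 4.94 on all 3 day 1 arrays and at 5.19 and 4.96 in the medium control (-2.32 ± 0.78, adjusted p = 0.161).

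Fatty acid handling gave 3 rises and 0 falls among 24 tested genes, with a median of 0.04, where 0.828% of all genes rose and 1.33% fell. Without day 2 replicate 1, 3 were higher and 2 lower (Lpl and Zfp423), against 4.35% and 6.22% of all genes. Fabp4, a fatty acid carrier of adipocytes and macrophages, went from 8.82, 9.87 and 9.13 to 11.73, 11.61 and 12.03 (2.52 ± 0.36, adjusted p = 0.0127), and Fabp5, its relative, by 1.88 ± 0.29 (adjusted p = 0.0167). Acaca, which makes malonyl-CoA for fatty acid synthesis, rose by 1.69 ± 0.36 (adjusted p = 0.047). The medium control lay at 11.10 on both arrays for Fabp4 and at 13.17 and 13.28, above day 1, for Fabp5. Other probe sets of Fabp4 and Fabp5 changed by 3.28 and 2.00. The calls held in 3, 2 and 0 of the 6 removals.

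Transcription factors of urogenital ridge mesenchyme had 0 higher and 2 lower of 19 tested, with a median of -0.22. Prrx1, a homeobox gene of limb and body wall mesenchyme, fell from 13.14, 12.93 and 12.49 to 11.26, 10.14 and 10.15 (-2.34 ± 0.50, adjusted p = 0.0497), and Zeb1, a repressor of epithelial genes, from 10.39, 9.96 and 9.72 to 8.18, 8.32 and 7.90 (-1.89 ± 0.35, adjusted p = 0.032). Without day 2 replicate 1 the list had 0 higher and 4 lower. For both genes the medium control lay within the day 0 range, and the other probe sets changed by -1.94 to -0.88 for Prrx1 and by -0.59 to -0.47 for Zeb1. Their calls held in 0 of the 6 removals. Prrx1 was also the 1 stromal marker of 10 that passed. Lists with 0 members past the threshold were smooth muscle contractile genes (18 tested, median -0.10), NRF2 and antioxidant genes (28, 0), cholesterol synthesis (21, -0.05), glycolysis and hypoxia response (33, 0.03), the IGF axis (17, -0.26) and the Notch pathway (21, 0). Without day 2 replicate 1 these held 0, 3, 0, 0, 1 and 1 higher and 0, 0, 0, 1, 3 and 3 lower genes.

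**Figure D3:**
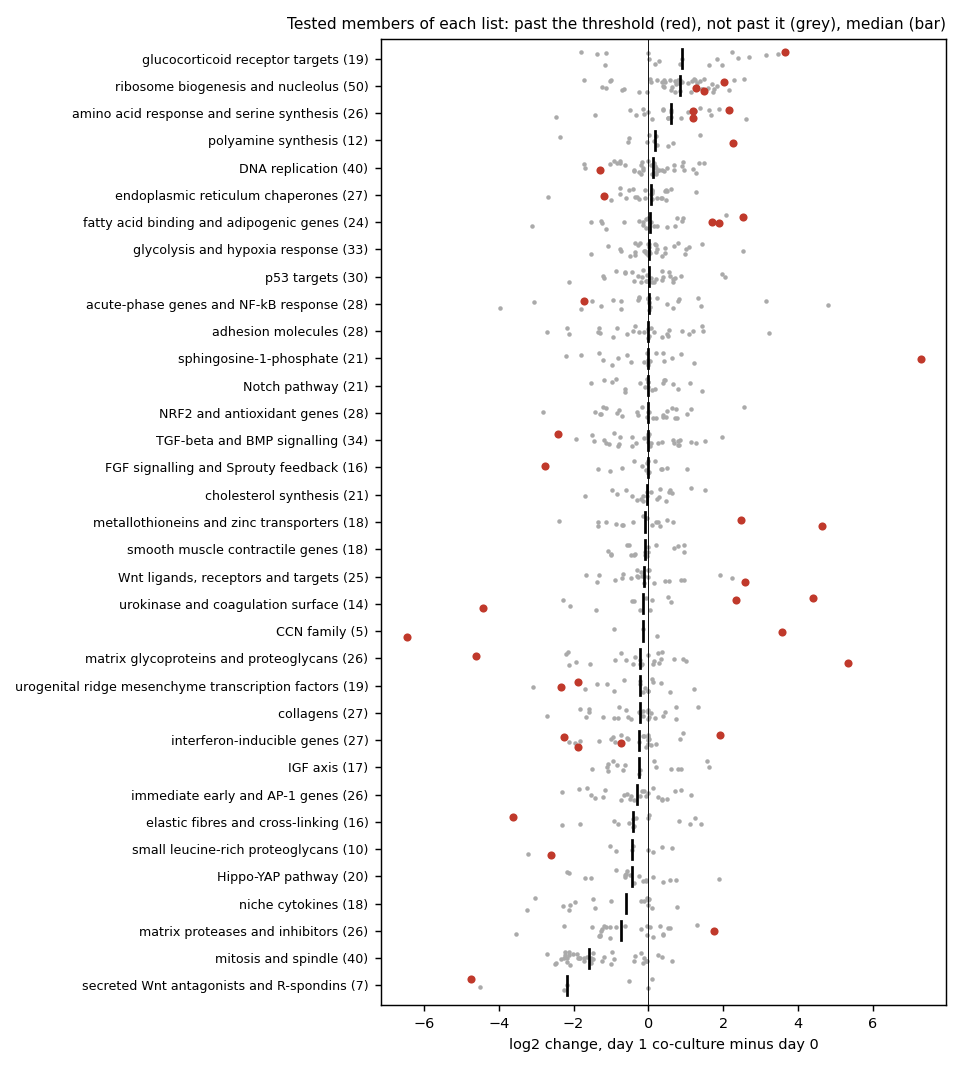
Log2 change from day 0 to day 1 (horizontal) of every tested member of the 35 pathway lists, with the number tested after each name; red points passed the threshold, grey points did not and the black bar is the list's median. Mitosis and spindle genes and the secreted Wnt antagonists have the lowest medians, at -1.60 and -2.18, and glucocorticoid targets and ribosome biogenesis the highest, at 0.90 and 0.83.

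Several large falls concerned genes outside the lists, and for some of them other probe sets did not fall. Rerg, a small GTPase of the Ras family, went from 7.34, 7.41 and 7.12 to 3.09, 2.40 and 3.04 (-4.45 ± 0.45, adjusted p = 0.00451), with 3.40 and 3.30 in the medium control. Zfp874a, a zinc finger gene, fell from 6.39, 7.18 and 6.84 to 3.51, 3.31 and 3.45 (-3.38 ± 0.31, adjusted p = 0.00228), and the medium control lay at 5.64 and 5.78. Both had a single probe set past the filter on low values. AW551984, the gene with the largest fall, changed by -6.77 ± 1.28 (adjusted p = 0.0368), but its other probe sets by -1.59 and -0.68.

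Zfr, an RNA-binding zinc finger gene, fell from 11.89, 11.57 and 10.87 to 7.52, 7.64 and 7.70 (-3.82 ± 0.43, adjusted p = 0.00669, held in 5 of the 6 removals), while its 3 other probe sets changed by -0.41 to -0.03. In the medium control it stood at 12.17 and 12.33. The kinase gene Mast4 (-3.37 ± 0.43) had 2 other probe sets at -0.04 and 0, and Chic1 (-2.28 ± 0.24) had 2 at -0.26 to 0.03. The tested probe set and the others of such a gene thus gave different readings on the same arrays. Over all genes called, 128 had another probe set past the filter, and in 97 of them (75.8%) every other probe set moved in the direction of the tested one, as did 56.8% of the 5467 such genes in all.

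Among other rises, Klf13, a Krüppel-like transcription factor gene, went from 5.86, 5.24 and 4.95 to 8.06, 7.83 and 7.91 (2.58 ± 0.32, adjusted p = 0.00944), with 7.91 and 7.96 in the medium control. Acp5, an acid phosphatase best known from osteoclasts, rose from 2.38, 2.33 and 2.38, near the lowest value of the table, to 4.79, 5.11 and 4.47 (2.43 ± 0.29, adjusted p = 0.00934). It lay between in the medium control, at 3.37 and 3.26. Ercc1, of nucleotide excision repair, rose by 1.41 ± 0.18 (adjusted p = 0.00944), with its medium control arrays, at 7.84 and 7.88, within the day 0 range of 7.58 to 7.97. These 3 were picked after their values were seen, since they kept their calls in 4, 5 and 5 of the 6 removals.

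Among genes of blood cells 1 passed, in wells that had received such cells. Ctsg, the neutrophil granule protease cathepsin G, measured 2.61, 2.61 and 2.56 at day 0, 2.61 and 3.19 in the medium control and 7.06, 7.84 and 7.77 on day 1 (4.96 ± 0.81, adjusted p = 0.0227). Against the medium control it passed as well (4.65 ± 0.91, adjusted p = 0.0272), and it rose on to 9.33 to 13.14 on day 2. The call held in 0 of the 6 removals. Mpo and Prtn3, of the same granules, had no overlap between day 0 and day 1 but did not pass. Mpo read 3.53, its floor, on all 3 day 0 arrays against 5.61, 6.33 and 6.50, and Prtn3 at most 3.37 against 5.99, 5.83 and 5.99. Laptm5, a lysosomal protein of leukocytes, differed by 4.02 ± 1.12 (adjusted p = 0.101), though its 3 other probe sets differed by 0 to 0.33. Tyrobp, a signalling adaptor of myeloid cells, was at the floor at day 0 and higher on day 1 by at least 3.38 (SE 1.18, adjusted p = 0.175). Ptprc, the CD45 gene, lay at 2.28 on all day 0 and medium control arrays and at 2.84, 4.13 and 2.69 on day 1.

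Of 12 tested neutrophil genes 1 rose and 0 fell, and 5 were higher without overlap, where 17.7% of all genes were. Of the 12, 7 lay at or under 2.38 on every day 0 and medium control array, so they passed the filter through co-culture arrays. A fall was barely possible for them, so the 17.7% is not a like share. Linear levels of the 12, summed over different probe sets, came to 72 to 76 at day 0, 155 to 167 in the medium control, which had no LSK cells, and 347 to 520 on day 1, with Elane, S100a9, Ngp, Csf3r and Mmp8 at the floor still. Of 14 macrophage and pan-myeloid genes 0 passed and 6 were higher without overlap, against the same 17.7%, but 9 of the 14 were at the floor at day 0. The sum over the 14 was 128 to 281 at day 0, 146 to 151 in the medium control and 376 to 1951 on day 1, with Adgre1, Cybb, Irf8 and Ly86 at the floor. That sum took in Laptm5, at 7.79, 10.44 and 9.28 on day 1, whose other probe sets differed by 0 to 0.33. Of 13 stem and progenitor genes 0 passed. Their sum overlapped, at 2868 to 5851 at day 0 and 4270 to 4980 on day 1, with 1489 to 1708 in the medium control, Tal1, Gfi1 and Ikzf1 stayed at the floor, and Kit, used to sort the cells, read 2.28 to 2.38 throughout, below the filter, and has no test. Meis1 and Mecom, 2 markers of this list that read 7.16 or more on all 5 arrays of stroma without LSK cells, differed by -1.61 ± 0.40 and -1.76 ± 0.49.

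Of 7 erythroid and megakaryocyte genes and 4 lymphoid genes 0 passed, with sums of 191 to 276 against 339 to 444 (74 to 91 in the medium control) and of 293 to 656 against 596 to 716 (519 to 595), and Klf1, Vwf, Ppbp and Il7r at the floor on day 1. In both lists 1 gene alone averaged above 5 at day 0, in the medium control and on day 1. These were Itga2b, at 7.29 to 7.91 at day 0, and Ebf1, at 8.01 to 9.31, and the sums largely followed them. Of 3 endothelial genes 0 passed, with a sum of 93 to 141 against 426 to 627 that followed Kdr (2.59 ± 1.57), which was highest in the medium control at 10.40 and 10.42. Of 5 epithelial and mesothelial genes 1 fell, Krt19 (-2.30 ± 0.44, adjusted p = 0.0376). Without day 2 replicate 1 the myeloid lists held 4 and 2 higher genes, the stem cell list 2 lower, and the endothelial list Kdr, higher with a standard error of 0.41. Lcn2, a member of the neutrophil list, read 3.11 on all day 0 arrays, 6.51 and 6.64 in the medium control and 5.92, 6.81 and 5.99 on day 1. In such mixed samples more cells of a type and more RNA per cell cannot be told apart, and the part of blood cell RNA in changes of other genes was not tested.

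**Figure D4:**
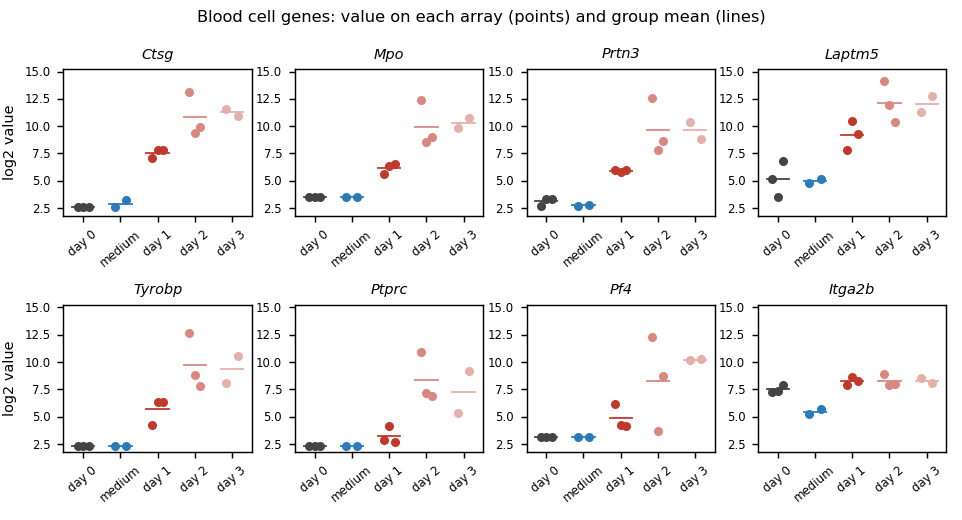
Log2 value (vertical) of 8 blood cell genes on each array by group; points are arrays and lines group means. Ctsg, Mpo, Prtn3, Laptm5, Tyrobp and Ptprc lie higher on day 1 than at day 0 without overlap, as does Pf4, whereas Itga2b already reads 7.29 to 7.91 at day 0 and is lowest in the medium control, at 5.25 and 5.70.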

How the data were processed

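The authors deposited log2 expression values for 45101 probe sets on 13 Affymetrix mouse arrays. RMA and GCRMA are named, per the submitters' processing notes, without versions or which gave these values. Probe sets with 1 gene symbol (34958) were kept where above the table's median, 2.38, on at least 2 arrays, and the probe set with the highest mean stood for each of 12205 genes. A gene was fitted with limma 3.58.1 (R 4.3.3) over all 13 arrays with a mean per group, and p-values were adjusted by Benjamini-Hochberg. The number of arrays limits the precision. Tested on simulated data for day 1 against day 0, with 200 of 12205 genes changed, the fit recovered 6.8% of log2 changes of 1, 48.4% of 2, 66.4% of 3 and 86.4% of 4. Every simulated array was given the gene's spread from the fit of all 13 arrays, day 2 replicate 1 included. Recovery thus reflects that spread as well as the number of arrays.

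Genes were named by rule: the 15 largest rises and falls past the threshold, those past it in every removal of 1 array, up to 4 called members of a list or, with none called, the 2 smallest p-values, and 10 set genes. The text prints only part of the genes so named, and that part need not stand for the whole set. Other names were chosen after their values were seen. The members and lists were chosen with earlier results of these data known. No pairing of the arrays by replicate number was seen (correlations of deviations -0.11, -0.22 and 0.25), though so few arrays cannot exclude it. Alternatives covered the filter, normalization, probe set rule, variance model, array weights, arrays in the fit and replicate block.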

Additional observations from a re-analysis of the deposited data

How the results depend on the processing

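Against 263 calls for day 1 over day 0, the count was 162 with no filter on low values, 110 with arrays centred on their measured probe sets, which moved the median change of all genes to 0.144, 3583 with array weights and 1786 with only the 6 arrays. Leaving out 1 array gave 9 to 1290. With the replicate block it was 103, and 997 with the block and day 2 replicate 1 left out. In each group 1 array, day 0 or day 1, correlated best with its own number. That gave no sign of pairing, which so few arrays cannot exclude. For the medium control over day 0 (40 calls) the count was 26 after quantile normalization, 4 centred, 3585 with array weights, 8 with the block, 11 with the block and day 2 replicate 1 left out, and 8 to 166 without 1 array. For day 1 over the medium control (635 calls) it was 223 centred, 6423 with array weights, 208 with the block, 1348 with the block and day 2 replicate 1 left out, and 7 to 2103 without 1 array. Removals of medium control arrays and the block without day 2 replicate 1 were chosen after seeing the data. Counts under the other filters and models run stayed within 1.5 times. Of the 58 named genes called, 9 kept their call without day 1 replicate 2 and 58 without day 2 replicate 1, and none of the 58 changed direction under the settings run. Array weights gave day 2 replicate 1 a weight of 0.0389. The cause of these shifts was not tested.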

Other observations

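Gene families formed by their names, after values had been seen, cover further parts of the cell. Of 76 mitochondrial ribosomal protein genes 4 rose on day 1 (Mrpl22, Mrps12, Mrps17 and Mrps26) and 0 fell, with a median of 0.51, and 33 were higher without overlap. The median in the medium control was 0.23. Of 43 cytosolic ribosomal protein genes 0 passed, with a median of 0.37 and 20 higher without overlap. Of 34 subunit genes of respiratory complex I 0 passed, with a median of 0.38, and of 17 ATP synthase genes 1 rose, Atp5d. Of 38 proteasome genes 0 passed, with a median of 0.05. Of 275 zinc finger genes with Zfp names 2 rose and 5 fell, with a median of -0.23, and 83 were lower without overlap against 30 higher. Over all genes 17.7% were higher and 21.3% lower without overlap, and 0.828% rose and 1.33% fell past the threshold. Without day 2 replicate 1 the families, in the order given, held 13, 2, 4, 4, 1 and 12 higher genes. They held 0, 0, 0, 0, 3 and 25 lower genes in that fit, where 4.35% of all genes were higher and 6.22% lower.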
